A study of Rattus norvegicus with 8 samples.

Results

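Dorsal root ganglia, the clusters of sensory neuron cell bodies beside the spinal cord, were compared between rats with imiquimod on the back skin and untreated rats, in 6 of the 8 RNA-seq libraries of the series. The libraries compared are the 3 IMQ and 3 WT libraries named in the sample titles. Both groups were Sprague Dawley rats of 250 g, with no genetic change described. WT rats were left untreated, and IMQ rats had the drug on the back skin for 6 consecutive days. Ganglia of both were collected on day 7. A vehicle for the WT rats, the spinal level, sex, age and any pooling are missing from the labels, so skin handling and drug cannot be told apart. Libraries of a group are numbered, but the labels do not say that each was 1 animal, and p-values measure the spread between these libraries, which may be technical. Values are log2(normalized count + 1), and a difference is the mean of IMQ minus the mean of WT on that scale, which understates changes of genes with few reads.

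Imiquimod activates Toll-like receptor 7, an endosomal sensor of single-stranded RNA in macrophages and dendritic cells, and its application to skin is a model of psoriasis. Ganglia hold sensory neurons, the satellite glia around them, Schwann cells, vessels, connective tissue and resident macrophages, which are known to grow in number or activity when the skin or nerve they serve is inflamed. Leukocytes sense their surroundings through paired receptors, in which activating members work through small adaptors that carry tyrosine motifs and inhibitory members recruit phosphatases. Kinases of the Src, Syk and Tec families read those motifs and pass the signal to Rac, actin and the NADPH oxidase. The families below are drawn from gene symbols and descriptions outside the usual lists of cytokines, chemokines, complement, interferon and antigen presentation genes.

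The deposited table lists 4136 genes, all of which differ by at least 1.00 between the group means, 2528 higher and 1608 lower in IMQ. Over these genes the libraries hold 6251729 to 9035486 reads in WT and 4311091 to 4680897 in IMQ. In limma with Benjamini-Hochberg adjustment over all listed genes, 2435 higher genes passed the threshold of 0.05 (58.9%) and 1530 lower genes (37%), or 95.9% in either direction. Without WT2 these counts were 1609 and 884, and without IMQ3 they were 1565 and 885. Without WT1 they were 2397 and 1559. Family counts given below without single libraries are mostly the lowest ones. Since the authors had already called every listed gene, a count of members past this threshold is read against 95.9% and not as a finding. Of the listed sensory neuron markers, 4 of the 14 looked for (Tac1, Nefm, Prph, Sncg), the summed normalized count was 544626 to 1050117 in WT and 339785 to 351966 in IMQ. The satellite glia markers Cdh19 and Glul (2 of 4 listed) summed to 18695 to 19457 in WT and 37682 to 63255 in IMQ. None of the 4 Schwann cell markers is among the listed genes. In bulk tissue a change in the number of cells of a type and a change in RNA per cell cannot be told apart.

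The sequences that go with the results are given first. The promoters below are the 250 bases before the start of 6 genes, 3 of leukocytes that were higher and 3 of general machinery that were lower, from the RefSeq table of build GRCr8, and they were picked because each holds a motif described here. Vav1 lies at chr9:2248705-2248954 (plus strand), Ms4a6a lies at chr1:217839574-217839823 (minus strand), Nlrp3 lies at chr10:44827848-44828097 (plus strand), Snrpg lies at chr4:120369461-120369710 (plus strand), Hspe1 lies at chr9:64084077-64084326 (plus strand) and Taf13 lies at chr2:198893082-198893331 (plus strand). Capitals mark 2 short motifs, each searched on both strands: GAGGAAG, which resembles sites of the myeloid factor PU.1, and CCGGAAG, which resembles sites of other ETS factors. They share the letters GGAAG, but no single match on the same strand can be both.
Vav1: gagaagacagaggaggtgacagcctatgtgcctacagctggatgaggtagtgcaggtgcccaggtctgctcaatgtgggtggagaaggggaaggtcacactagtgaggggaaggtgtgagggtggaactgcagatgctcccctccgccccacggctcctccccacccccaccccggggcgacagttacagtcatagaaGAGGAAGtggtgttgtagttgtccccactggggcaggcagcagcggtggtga
Ms4a6a: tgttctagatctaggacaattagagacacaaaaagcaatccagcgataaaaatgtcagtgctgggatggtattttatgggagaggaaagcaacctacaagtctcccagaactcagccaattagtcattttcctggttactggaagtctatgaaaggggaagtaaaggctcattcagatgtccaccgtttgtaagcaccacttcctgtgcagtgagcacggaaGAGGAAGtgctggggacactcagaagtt
Nlrp3: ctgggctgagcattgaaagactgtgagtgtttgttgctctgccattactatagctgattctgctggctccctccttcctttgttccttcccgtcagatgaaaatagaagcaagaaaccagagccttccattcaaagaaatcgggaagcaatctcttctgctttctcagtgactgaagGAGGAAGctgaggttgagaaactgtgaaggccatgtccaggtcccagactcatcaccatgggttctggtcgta
Snrpg: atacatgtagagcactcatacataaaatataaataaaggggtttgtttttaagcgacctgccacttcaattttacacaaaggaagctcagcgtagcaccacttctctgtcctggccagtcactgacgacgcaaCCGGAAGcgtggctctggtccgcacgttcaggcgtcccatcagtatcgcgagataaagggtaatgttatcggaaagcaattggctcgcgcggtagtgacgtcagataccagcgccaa
Hspe1: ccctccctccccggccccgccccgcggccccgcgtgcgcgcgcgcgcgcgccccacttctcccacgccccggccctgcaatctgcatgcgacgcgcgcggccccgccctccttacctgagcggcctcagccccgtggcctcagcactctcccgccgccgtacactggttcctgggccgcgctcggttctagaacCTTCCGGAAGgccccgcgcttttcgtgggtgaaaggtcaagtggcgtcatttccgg
Taf13: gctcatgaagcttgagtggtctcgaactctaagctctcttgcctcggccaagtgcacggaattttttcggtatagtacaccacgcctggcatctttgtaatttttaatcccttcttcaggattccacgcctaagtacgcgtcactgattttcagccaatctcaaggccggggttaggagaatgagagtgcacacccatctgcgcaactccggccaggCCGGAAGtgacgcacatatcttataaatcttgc

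Over windows of 250 bases before to 50 after the start, GAGGAAG stood in 21 of 69 promoters (30.4%) of the higher members of 8 leukocyte families, against 12.3% of 24206 promoters in the table. These families were the kinases, adaptors, actin proteins, phosphoinositide enzymes, NADPH oxidase, paired receptors, Ms4a and SLAM proteins, of whose 102 symbols 69 had 1 promoter in the table. CCGGAAG stood in 2 of these 69 (2.9%). Among 75 promoters of lower members of 7 machinery families (proteasome, polymerase and Mediator, spliceosome, ubiquitin, chaperones, translation factors and vesicle tethering; 75 of 91 symbols), CCGGAAG stood in 26 (34.7%), against 9.49% of all promoters in the table, and GAGGAAG in 11 (14.7%). Promoters of all genes listed as higher held GAGGAAG in 18.4% and CCGGAAG in 6.04%, and those of all genes listed as lower in 10.9% and 15.7%. These are matches of letters in a window and no measure of binding. Spi1 (ENSRNOG00000012172), which encodes PU.1, was picked after its values were seen. It was at 7.47, 7.47 and 7.38 in WT1 to WT3 and 9.54, 9.45 and 9.38 in IMQ1 to IMQ3. The groups did not overlap, as in 92.8% of listed genes. A part of PU.1 in these families was not tested.

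The table also lists 3 microRNA genes, and the mature sequences of 2 of them follow with the seed (bases 2 to 8) in capitals. No seed is shared among the 4. Mir142 is a locus of blood cells, and Mir675 lies in the H19 noncoding RNA.
rno-miR-142-5p: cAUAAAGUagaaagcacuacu
rno-miR-142-3p: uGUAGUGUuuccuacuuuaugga
rno-miR-675-3p: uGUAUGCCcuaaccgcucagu
rno-miR-675-5p: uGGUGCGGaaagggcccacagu
Mir142 (ENSRNOG00000035633) was at 0.79, 2.23 and 2.45 in WT1 to WT3 and at 3.71, 2.95 and 3.54 in IMQ1 to IMQ3, higher by 1.58 (SE 0.55, limma adjusted p = 0.0277). Mir675 (ENSRNOG00000040350) was at 4.83, 5.55 and 4.54 in WT and at 7.35, 6.502 and 6.86 in IMQ, higher by 1.93 (SE 0.41, limma adjusted p = 0.00606). Neither gene's groups overlapped, and the call of Mir142, at a mean normalized count of 6.38, was lost without IMQ1 or IMQ3 (limma adjusted p = 0.0726 to 0.0742). Mir2861 was at 1.96, 2.79 and 1.48 in WT and at 0 in all IMQ libraries, at least 1.04-fold lower against a floor of 3 reads per library. Reads of a hairpin gene in total RNA can come from the longer transcript around it, so these are levels of the loci and not of the mature forms.

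The WT libraries were not alike. The median over listed genes of the SD of 3 libraries was 0.61 in WT and 0.20 in IMQ, and the WT value was the larger in 78.3% of genes. WT1 was the WT library nearest to IMQ in 63.2% of the higher and 82.6% of the lower genes, and WT3 was the farthest in 52.8% and 78.0%. The mean of IMQ exceeded WT1, WT2 and WT3 by a median of 1.46, 1.88 and 2.30 in genes listed as higher, and lay below them by a median of -0.86, -1.45 and -1.90 in genes listed as lower. A difference of at least 1 in the listed direction was present against WT1 in 64.7% of higher but 41.4% of lower genes. Against WT2 and WT3 it was present in 93.3% and 94.2% of higher and 95.0% and 97.2% of lower genes. It held against each of the 3 WT libraries in 2022 genes (48.9%), 1425 higher and 597 lower.

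Of 52 families with at least 5 listed members, 40 had a median above 0 and 12 below. The direction of a family is read against the 61.1% of all listed genes that are higher. Its size is read against the median difference of all higher genes, 1.89. Some families with all members higher lay below that median, such as purine genes (1.70) and TRIM and PARP genes (1.69). The median was at least 1 against each WT library in 25 of the 40 higher families and in 2 of the 12 lower ones, histones and cilium genes. It was at least 2 against each in 7: paired immunoglobulin-like receptors, receptor adaptors, Ms4a proteins, SLAM receptors, inflammasome genes, iron and haem genes and chemosensory receptors. The last of these has 4 of 10 members at 0 in WT, and its median difference of 2.68 becomes 1.87 with those set at their bound. Serpins have 5 of 12 members at 0 in a group, and their median of 1.73 becomes 0.98 at the bound.

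The number of members that reached 1 against each WT library is read against 48.9% of all listed genes. That share differed by direction, with 1425 of 2528 higher genes but 597 of 1608 lower genes. A family mostly of 1 direction is better read against the share of that direction. Among families of leukocyte receptors and signalling it was 23 of 26 adaptors, 10 of 11 actin proteins, 7 of 10 kinases, 5 of 9 phosphoinositide enzymes, 11 of 19 phosphatases, 8 of 9 SLAM receptors and 7 of 9 Ms4a proteins. Among effector families it was 16 of 19 inflammasome genes, 3 of 5 NADPH oxidase subunits, 20 of 28 G protein-coupled receptors, 6 of 10 purine genes, 10 of 15 eicosanoid genes and 10 of 13 iron genes. Blood cell transcription factors gave 19 of 35, and TRIM and PARP genes 10 of 15. Of these families, phosphoinositide enzymes and blood cell transcription factors, all or nearly all higher, did not exceed the share of higher genes. In matrix and adhesion it was 8 of 12 integrins, 7 of 13 collagens and, below the share, 5 of 11 ADAM proteases and 11 of 42 junction genes. In growth factor pathways it was 10 of 14 Wnt genes, 6 of 10 Notch and ephrin genes and 10 of 18 vascular genes, but 7 of 20 TGF-beta and BMP genes and 2 of 5 neurotrophic genes. Metabolic families gave 3 of 6 glycolysis genes, 9 of 18 lipid genes and 15 of 28 xenobiotic enzymes, but 2 of 9 antioxidant enzymes. Most machinery families lay below the share, with 2 of 19 chaperones, 3 of 15 ubiquitin genes, 2 of 12 proteasome subunits, 2 of 16 polymerase and Mediator subunits and 5 of 26 vesicle genes. Synaptic vesicle proteins lay above it, with 6 of 10. The rest were 6 of 10 histones, 4 of 10 S100 proteins and annexins, 6 of 16 cilium genes, 8 of 24 bHLH and bZIP factors, 9 of 13 G protein and RGS genes, 1 of 7 DNA replication genes and 8 of 10 chemosensory receptors.

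**Figure D1:**
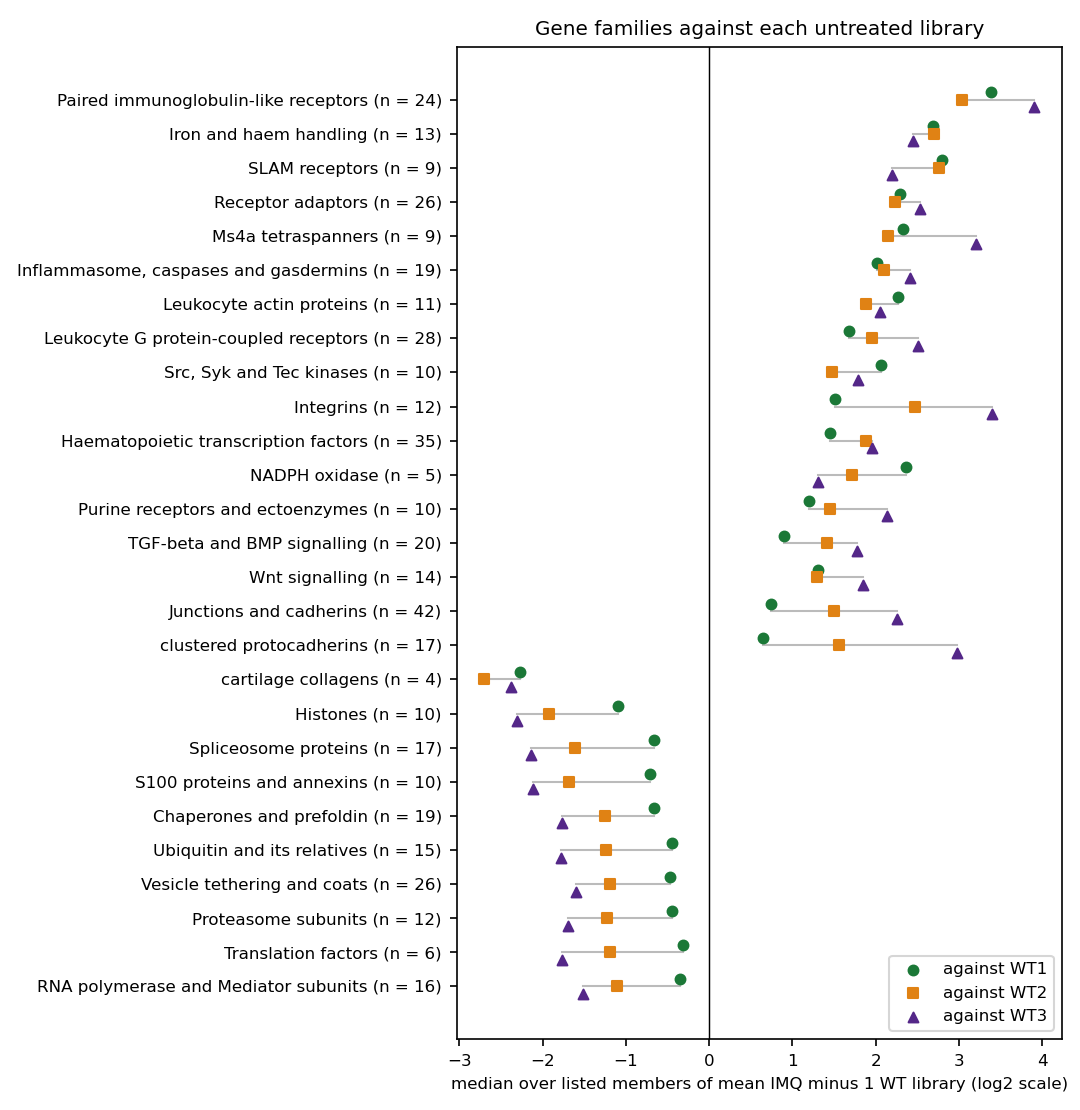
Median over the listed members, for selected families and subgroups, of mean IMQ minus 1 WT library, on the log2 scale, with circles for WT1, squares for WT2 and triangles for WT3 and the number of listed members in brackets. Paired receptors and receptor adaptors lie at 2.24 or more against all 3 libraries, while machinery families are nearest to zero against WT1 and farthest below it against WT3, as for spliceosome proteins at -0.66, -1.61 and -2.14.

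Paired immunoglobulin-like receptors, the activating and inhibitory surface receptors of myeloid cells and lymphocytes, had the largest median difference of the 52 families. All 24 listed members were higher and called, and in all 24 the libraries of the groups did not overlap, as in 92.8% of listed genes. Their median difference was 3.12 against 1.89 for all higher genes, and it was 3.39, 3.04 and 3.91 against WT1, WT2 and WT3. In 22 of 24 the difference reached 1 against each WT library, against 48.9% of all listed genes and 1425 of 2528 higher genes. Siglec1 (ENSRNOG00000021243), the sialic acid receptor of macrophages, was at 6.67, 6.32 and 6.47 in WT1 to WT3 and 11.41, 11.37 and 11.26 in IMQ1 to IMQ3. The 3 WT values lay close together and far below the IMQ values, a 29-fold difference (4.86, SE 0.24, limma adjusted p = 3.26e-05). Lilrb4 (ENSRNOG00000027811), an inhibitory receptor, was at 4.72, 5.41 and 4.89 in WT1 to WT3 and 9.55, 9.85 and 9.76 in IMQ1 to IMQ3, higher by 4.72 (SE 0.31). Lilrb3a was higher by 4.33, but Lilrb3, Lilrb3a and Lilrb3l are close copies whose reads the counting could split, and single values of these 3 are uncertain.

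The adaptors that such receptors need were higher with them. All 26 listed receptor adaptors rose, with a median of 2.30 and nearly the same medians against the 3 WT libraries (2.29, 2.24 and 2.53). Fcer1g (ENSRNOG00000024159), the common gamma chain of Fc receptors, was at 8.68, 8.78 and 9.05 in WT1 to WT3 and 12.12, 11.88 and 11.999 in IMQ1 to IMQ3, with no overlap (3.16, SE 0.23, limma adjusted p = 0.000102). Nfam1 (ENSRNOG00000022975), a receptor with its own tyrosine motif, rose by 3.59 (SE 0.27) and Fyb (ENSRNOG00000013886), which links receptors to actin, by 3.52 (SE 0.29). The smallest difference was that of Lat, the T cell linker, at 1.15; its call was lost without WT2, IMQ1, IMQ2 or IMQ3 (limma adjusted p = 0.0535 to 0.0804).

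Downstream enzymes followed. All 10 listed Src, Syk, Tec and Janus kinases were higher (median 1.85, against 1.89 for all higher genes). Fgr (ENSRNOG00000009912), a Src kinase of myeloid cells, was at 5.95, 6.36 and 5.48 in WT1 to WT3 and 9.92, 9.996 and 10.01 in IMQ1 to IMQ3, and its IMQ values lay far above the highest WT value. It rose by 4.04 (SE 0.31, limma adjusted p = 0.000123), and Lyn and Syk rose by 2.45 and 2.07 (SE 0.22 and 0.26). Of 9 phosphoinositide and phospholipase C enzymes all rose, with a median of 1.54, below that of all higher genes. The top of these was Pik3r5 (ENSRNOG00000023428), a regulatory subunit of the leukocyte lipid kinase, at 3.56 (SE 0.27), beside the kinase's catalytic subunit Pik3cg at 2.78. Of the 9, 5 were called without IMQ1 and 5 without IMQ3. Tyrosine and dual-specificity phosphatases were split, 15 higher and 4 lower. Ptprc (ENSRNOG00000000655), the leukocyte surface phosphatase CD45, was at 8.37, 7.86 and 7.37 in WT1 to WT3 and 10.96, 11.07 and 11.03 in IMQ1 to IMQ3 and rose by 3.15 (SE 0.31), while Dusp22, a dual-specificity phosphatase, fell by 1.09 (SE 0.26).

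Actin and Rac regulators of leukocytes were higher as well. Among 11 leukocyte actin proteins 10 rose, and their median of 2.11 hardly differed between WT libraries (2.26, 1.88 and 2.05). Parvg (ENSRNOG00000052064), an actin-linked adhesion protein of blood cells, was at 5.71, 5.19 and 5.51 in WT1 to WT3 and 9.39, 9.20 and 9.43 in IMQ1 to IMQ3 (3.87, SE 0.29, limma adjusted p = 0.000117). The exception was Arpc5l, a subunit of the actin-branching complex that many cells use, which fell by 1.52 (SE 0.33). Vav1 (ENSRNOG00000050430), the Rac activator of blood cells whose promoter is shown above, was at 6.28, 5.55 and 5.88 in WT1 to WT3 and 9.11, 9.36 and 9.32 in IMQ1 to IMQ3 and rose by 3.36 (SE 0.31, limma adjusted p = 0.000242). Rac2, the Rac of blood cells, rose by 2.54 (SE 0.36).

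**Figure D2:**
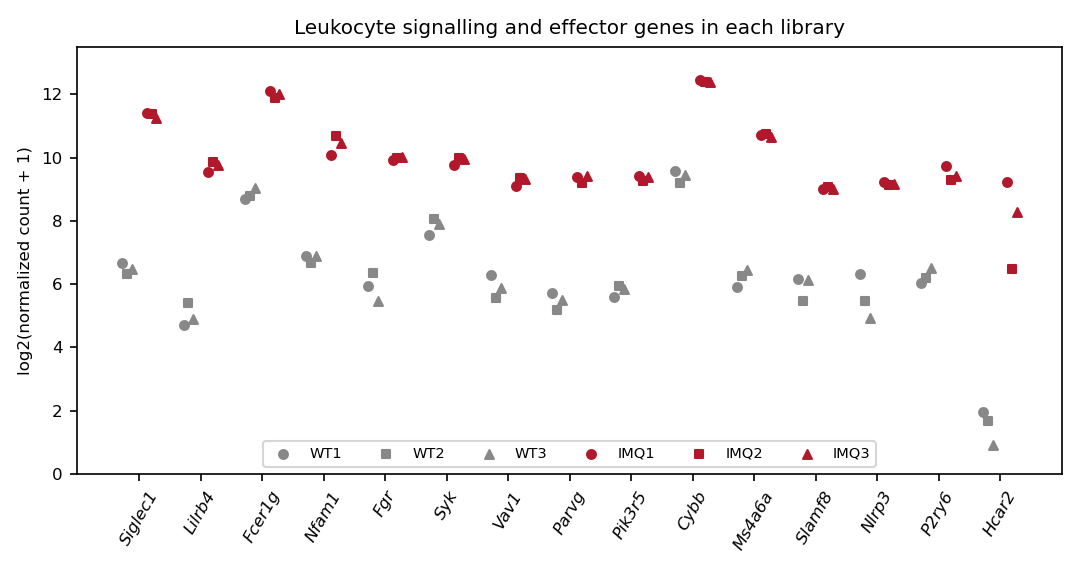
log2(normalized count + 1) of 15 leukocyte signalling and effector genes in the WT libraries (grey) and IMQ libraries (red), with circles, squares and triangles for libraries 1, 2 and 3. The genes were picked among the largest differences of their families. In all 15 every IMQ value lies above every WT value, while groups did not overlap in 92.8% of all listed genes. The IMQ values are close together except for Hcar2, which runs from 6.48 to 9.24.

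Effector genes of phagocytes moved in the same direction. All 5 listed NADPH oxidase subunits rose (median 1.71, against 1.89 for all higher genes). Cybb (ENSRNOG00000003622), the catalytic subunit that makes superoxide, was at 9.57, 9.19 and 9.47 in WT1 to WT3 and 12.46, 12.39 and 12.38 in IMQ1 to IMQ3 and rose by 3.00 (SE 0.22, limma adjusted p = 0.000112), and its cytosolic partner Ncf4 by 2.61 (SE 0.28). All 9 Ms4a proteins and all 9 SLAM receptors rose (medians 2.22 and 2.74). Ms4a6a (ENSRNOG00000020991), a macrophage membrane protein, was at 5.91, 6.26 and 6.45 in WT1 to WT3 and 10.72, 10.76 and 10.67 in IMQ1 to IMQ3, a 22.8-fold difference. Slamf8, a SLAM receptor of macrophages, rose by 3.11 (SE 0.31). Members of the Ms4a6 group are close copies, and their single values are uncertain.

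Of 19 inflammasome, caspase and gasdermin genes 18 rose, with a median of 2.14 that held against each WT library (2.02, 2.10 and 2.41). Nlrp3 (ENSRNOG00000003170), the sensor that assembles the best-known inflammasome, was at 6.33, 5.48 and 4.93 in WT1 to WT3 and 9.22, 9.12 and 9.16 in IMQ1 to IMQ3 and rose by 3.59 (SE 0.40, limma adjusted p = 0.000487). The WT values of Nlrp3 were spread more widely than the IMQ values, with no overlap. Naip6 and Nlrc5, relatives with other ligands or targets, rose by 3.50 and 3.47. The adaptor Pycard and the protease Casp1 rose by 1.93 and 1.78. Casp14, a caspase of keratinocytes, was at 0, 2.23 and 3.55 in WT1 to WT3 and 0, 0 and 0 in IMQ1 to IMQ3 and did not pass (limma adjusted p = 0.0556).

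Receptors for metabolites, lipids and nucleotides were higher in nearly all listed members. Of 28 G protein-coupled receptors of leukocytes and of the adhesion class, 27 rose (median 2.11). Hcar2 (ENSRNOG00000026653), the receptor for nicotinic acid and ketone bodies, was at 1.96, 1.69 and 0.92 in WT1 to WT3 and 9.24, 6.48 and 8.29 in IMQ1 to IMQ3 and showed the largest difference of the family (6.48, SE 0.72, limma adjusted p = 0.00047). Adgre1 (ENSRNOG00000046254), the macrophage surface protein F4/80, was at 8.28, 7.72 and 7.73 in WT1 to WT3 and 11.15, 11.16 and 11.16 in IMQ1 to IMQ3 and rose by 3.25 (SE 0.26). The exception was Lpar3, a receptor for lysophosphatidic acid, at 10.41, 9.51 and 9.97 in WT1 to WT3 and 7.54, 9.31 and 8.80 in IMQ1 to IMQ3. It was lower by 1.41, and its call was lost without WT1, WT3, IMQ1 or IMQ3 (limma adjusted p = 0.054 to 0.0672). All 10 purine receptors and ectoenzymes rose (median 1.70), with P2ry6 (ENSRNOG00000019270), a receptor for uridine diphosphate, at 3.23 (SE 0.28). P2ry13, a receptor for adenosine diphosphate, rose by 2.63 (SE 0.56).

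Of 15 listed eicosanoid genes, 10 rose, 4 fell and Ptger4 did not pass. Ptgs2 (ENSRNOG00000002525), the inducible cyclooxygenase COX-2, was at 6.15, 5.25 and 3.44 in WT1 to WT3 and 9.98, 7.87 and 8.98 in IMQ1 to IMQ3 and rose by 4.00 (SE 0.79, limma adjusted p = 0.00465). The secreted phospholipases Pla2g2a (ENSRNOG00000016945) and Pla2g2d rose by 3.22 and 3.34 (SE 0.24 and 0.61). Among the lower members, the constitutive prostaglandin E synthase Ptges3, which is also a chaperone partner, fell by 1.09 (SE 0.23) and the cytosolic phospholipase Pla2g4e by 1.13 (SE 0.30). Ltc4s, the leukotriene C4 synthase, was lower by 1.94 with overlapping groups, and its call was lost without WT1, WT2, IMQ2 or IMQ3 (limma adjusted p = 0.071 to 0.129).

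Iron and haem handling was among the most strongly raised families, with 11 of 13 called higher and a median of 2.83, or 2.30 with the 1 gene at 0 in WT set at its bound. Slc11a1 (ENSRNOG00000014956), the metal transporter of phagosomes, was at 5.38, 5.68 and 5.65 in WT1 to WT3 and 9.36, 9.73 and 9.65 in IMQ1 to IMQ3 and rose by 4.01 (SE 0.28, limma adjusted p = 9.1e-05). Cp (ENSRNOG00000011913), the plasma ferroxidase ceruloplasmin, and Cd163, the haemoglobin scavenger of macrophages, rose by 3.67 and 3.66 (SE 0.27 and 0.32). Hamp, the iron hormone hepcidin, had no reads in WT and stood at 4.06, 2.95 and 3.67 in IMQ1 to IMQ3, at least 3.52-fold higher against a floor of 3 reads per library. Alas2, the haem synthesis enzyme of red cell precursors, went the other way at 9.90, 10.83 and 10.68 in WT1 to WT3 and 7.79, 9.67 and 9.12 in IMQ1 to IMQ3, and its call was lost without WT2, WT3 or IMQ1 (limma adjusted p = 0.0516 to 0.0764). Tfr2, the second transferrin receptor, was lower by 1.13 and did not pass (limma adjusted p = 0.0508).

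Transcription factors of blood cells were mostly higher, 33 of 35, against 61.1% of all listed genes. Their median of 1.84 did not exceed the 1.89 of all higher genes. Tfec (ENSRNOG00000061595), a factor of the macrophage lineage, was at 4.02, 2.23 and 3.02 in WT1 to WT3 and 7.19, 7.85 and 7.43 in IMQ1 to IMQ3 and rose by 4.398 (SE 0.51, limma adjusted p = 0.000589). Elf4 and Batf, of lymphoid and myeloid cells, rose by 3.20 and 2.68 (SE 0.53 and 0.48). The lower members were Klf1 and Gata1, both factors of red cell precursors. Klf1 (ENSRNOG00000003443) was at 6.58, 7.01 and 7.38 in WT1 to WT3 and 5.35, 5.83 and 5.64 in IMQ1 to IMQ3 and fell by 1.38 (SE 0.35). Gata1 was lower by 1.72, and its call was lost without WT2, IMQ1 or IMQ3 (limma adjusted p = 0.0612 to 0.0811). Of 35 members, 23 were called without IMQ3. All 15 TRIM and PARP genes, many of which interferon induces, rose (median 1.69), with Trim25, the ubiquitin ligase of RNA sensing, at 3.58 (SE 0.65) and Parp9 at 2.11 (SE 0.21).

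Cell type markers moved with these families. All 6 macrophage markers looked for are listed and higher, with a summed normalized count of 3013 to 3643 in WT and 18968 to 21711 in IMQ. All 4 T and NK cell markers are listed and higher (29.7 to 57.1 and 768 to 930). Of 5 neutrophil markers 3 are listed, all higher (768 to 1868 and 4332 to 7289). Of 5 erythroid markers 3 are listed, all lower (33517 to 83505 and 3249 to 14276). Of 5 B and plasma cell markers 3 are listed, 2 of them higher (151 to 284 and 1331 to 1477). No listed marker of these types was at 0 in every library of a group. The part of cell numbers in the families above was not tested.

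All 12 listed integrins were higher, but their medians against WT1, WT2 and WT3 were 1.51, 2.48 and 3.39. The 6 integrins of leukocytes (a grouping made after seeing the values) had a median of 3.21, 3.02 and 3.78 against the same libraries. Itgad (ENSRNOG00000019728) and Itgal, alpha chains of leukocyte integrins, rose by 4.34 and 4.10 (SE 0.37 and 0.45), and their common partner Itgb2 (ENSRNOG00000001224) was at 7.51, 7.39 and 7.18 in WT1 to WT3 and 10.88, 10.63 and 10.68 in IMQ1 to IMQ3. The vitronectin receptor chain Itgav, of many tissues, was at 10.48, 8.82 and 7.34 in WT1 to WT3 and 10.998, 11.41 and 11.28 in IMQ1 to IMQ3; WT1 lay near the IMQ libraries and WT3 far below them. Its call was lost without WT2, IMQ2 or IMQ3 (limma adjusted p = 0.0525 to 0.0604).

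Junction genes and cadherins were the largest family, with 39 of 42 higher (median 1.56). The 17 clustered protocadherins, neuronal adhesion proteins, were all higher and called, with a median of 1.89. Against WT1 alone the median was 0.65, against WT2 1.56 and against WT3 2.97, and WT3 lay below WT1 by a median of -2.43. Only 1 of 17 reached 1 against each WT library. Without WT1, WT2 and WT3 in turn 17, 4 and 12 of 17 were called, and without IMQ1, IMQ2 and IMQ3 in turn 3, 3 and 0. The whole family gave 39, 16 and 30 of 42 without the WT libraries in turn, and 16, 21 and 13 without the IMQ libraries. Pcdha4 was at 7.57, 5.76 and 4.02 in WT1 to WT3 and 7.84, 8.18 and 8.26 in IMQ1 to IMQ3, so that IMQ lay close to WT1 and far from WT3. Its call was lost without WT2, IMQ1, IMQ2 or IMQ3 (limma adjusted p = 0.0639 to 0.0808), while its difference in those fits was 2.23 to 2.44. Members of the alpha cluster (1 listed) and of the gamma cluster (9 listed) share constant exons within their cluster, and the 7 listed beta members are similar in sequence, so single members are uncertain. The desmosomal cadherin Dsc2 (ENSRNOG00000039969) was at 5.52, 4.75 and 4.84 in WT1 to WT3 and 8.36, 6.98 and 7.55 in IMQ1 to IMQ3 (2.60, SE 0.45). Its relative Dsc3, of epidermis, was at 3.57, 4.11 and 3.66 in WT and at 0 in all IMQ libraries, at least 3.13-fold lower, and Pcdh12 of endothelium fell by 1.21 (SE 0.29). Of 3 keratinocyte markers looked for, all are listed and lower, with a summed count of 159 to 430 in WT and 12.3 to 40.5 in IMQ, and of 5 skeletal muscle markers 4 are listed and lower (729 to 3559 and 271 to 418). The part of adhering skin or muscle in these values was not tested.

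**Figure D3:**
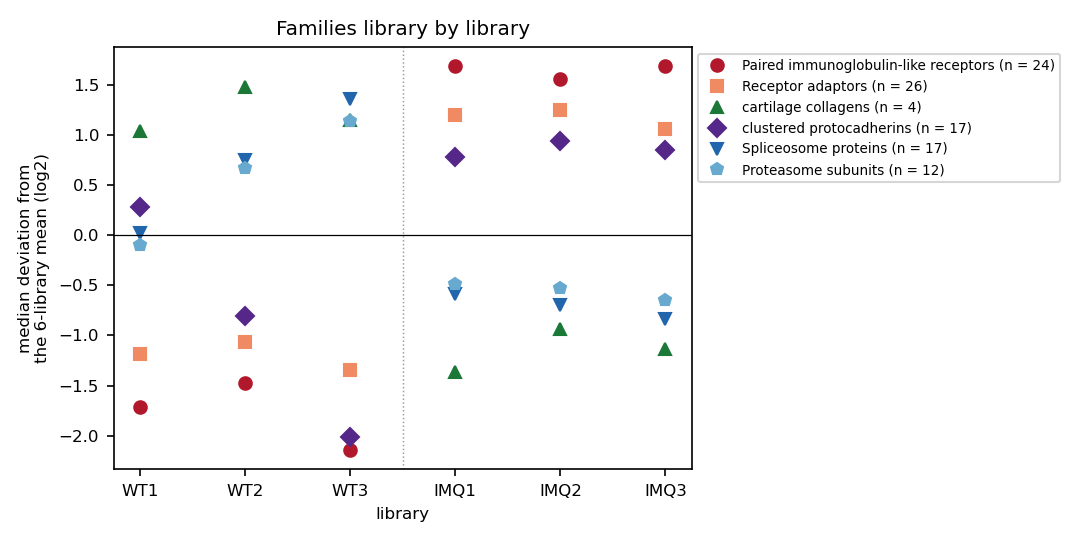
Median over members of each library's deviation from the 6-library mean of the gene (log2 scale) for 6 families, with the dotted line between WT and IMQ libraries. Paired receptors and adaptors sit at one level in WT and another in IMQ, while clustered protocadherins were at 0.28 in WT1 and -2.01 in WT3, and spliceosome proteins at 0.03 and 1.37.

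Of 13 listed collagens, 8 rose and 5 fell, and 7 were called without WT2 and 8 without IMQ3. Col8a1 (ENSRNOG00000039668), of vessel walls, was at 10.26, 8.64 and 7.61 in WT1 to WT3 and 11.78, 11.09 and 11.48 in IMQ1 to IMQ3 and rose by 2.61 (SE 0.62). The 4 cartilage chains listed, a grouping made after seeing the values, all fell, with medians of -2.27, -2.70 and -2.38 against the 3 WT libraries. Col11a2 (ENSRNOG00000000463) was at 8.62, 8.998 and 8.76 in WT1 to WT3 and 5.96, 6.21 and 6.26 in IMQ1 to IMQ3 and Col9a1 at 6.11, 6.39 and 6.91 in WT1 to WT3 and 0, 2.95 and 0 in IMQ1 to IMQ3. Neither overlapped between groups, and Col11a2 fell by 2.65 (SE 0.28). Among 11 ADAM and ADAMTS proteases 8 rose and 3 fell, of which 6 were called without WT2, 7 without IMQ2 and 6 without IMQ3. The higher members included Adamts4, an aggrecan-cleaving protease, at 2.87 (SE 0.26) and Adam8, of leukocytes, at 2.91 (SE 0.39).

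In TGF-beta and BMP signalling 17 of 20 listed genes were called higher and 2 lower (median 1.33), of which 12 were called without IMQ3. The extracellular member Ltbp2 (ENSRNOG00000012094), a binding protein of the latent-factor family, was at 8.21, 8.10 and 8.33 in WT1 to WT3 and 11.99, 11.16 and 11.53 in IMQ1 to IMQ3 and rose (3.35, SE 0.28, limma adjusted p = 0.00018). Tgfbr2, a receptor of TGF-beta, was at 11.10, 9.56 and 8.17 in WT1 to WT3 and 11.80, 11.98 and 11.94 in IMQ1 to IMQ3, and its call was lost without WT2 or IMQ2 (limma adjusted p = 0.0521 to 0.0529). In Wnt signalling 11 of 14 rose and 3 fell, and 9 were called without IMQ2. The ligand Wnt9a rose by 2.62 (SE 0.47) and the secreted Wisp2 by 2.10 (SE 0.27), while the receptor Fzd9 and the inhibitor Wif1 fell by 1.79 and 1.09 (SE 0.33 and 0.27).

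The 7 higher members of 10 listed Notch and ephrin genes were receptors, ligand or kinase of the ephrin system and the glycosyltransferases that modify Notch, with Notch3, the receptor of vascular muscle, at 2.30 (SE 0.47) and Lfng (ENSRNOG00000001250) at 1.73 (SE 0.27). The 3 lower members were all Hes factors, the transcriptional repressors of this pathway. Hes3 was at 5.38, 5.35 and 5.39 in WT1 to WT3 and 3.95, 3.74 and 3.41 in IMQ1 to IMQ3 and fell by 1.68 (SE 0.35), with no overlap. Hes7 fell by 1.78 (SE 0.47), and the call of Hes6 (-1.19) was lost without WT2 (limma adjusted p = 0.0514). Hes6 differs from its relatives in that it is known to oppose Hes1.

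Neurotrophic factors, which keep sensory neurons alive and set their sensitivity, were listed in 5 members, 3 called higher and 1 lower. Without WT2, WT3 or IMQ3, 2 were called. The high-affinity receptor of neurotrophin 3, Ntrk3, was at 9.01, 7.87 and 6.73 in WT1 to WT3 and 8.87, 9.43 and 9.37 in IMQ1 to IMQ3; WT1 lay inside the range of the IMQ libraries, and the call was lost without WT2, WT3, IMQ1, IMQ2 or IMQ3 (limma adjusted p = 0.0734 to 0.126). Of the GDNF family, Nrtn (neurturin) was at 4.20, 4.49 and 5.67 in WT1 to WT3 and 1.77, 0 and 1.65 in IMQ1 to IMQ3 and fell by 3.65 (SE 0.64). Artn (artemin) was higher by 1.21 and did not pass (limma adjusted p = 0.0534). Among vascular growth factors 12 of 18 rose and 6 fell (11 called without IMQ3), with Fgf2 (ENSRNOG00000017392) at 2.44 (SE 0.37), Pdgfra, a receptor of fibroblasts, at 1.63 (SE 0.30), and Fgf9, which neurons secrete, lower by 1.44 (SE 0.25). Of 4 endothelial markers 3 are listed, all higher (summed count 2801 to 3301 in WT and 7689 to 9829 in IMQ).

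Some genes differed among the IMQ libraries. IMQ1 lay at least 1 above IMQ2 in 320 listed genes, and IMQ3 lay between them in 255 of these. Of the 320, 233 are listed as higher in IMQ. The genes named here were chosen for this order, which is a description. The reverse, IMQ2 at least 1 above IMQ1, held in 226. Igfbp3 (ENSRNOG00000061910), a carrier of insulin-like growth factors, was at 9.97, 10.29 and 10.56 in WT1 to WT3 and 13.62, 11.13 and 12.56 in IMQ1 to IMQ3. Aldh1a2, which makes retinoic acid, was at 7.53, 7.62 and 7.38 in WT1 to WT3 and 11.11, 8.84 and 10.05 in IMQ1 to IMQ3. In both genes the groups did not overlap, while IMQ1 and IMQ2 were further apart than any 2 WT libraries. They rose by 2.16 and 2.49 (SE 0.58 and 0.54). Hcar2 and Ptgs2 above had the same order.

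**Figure D4:**
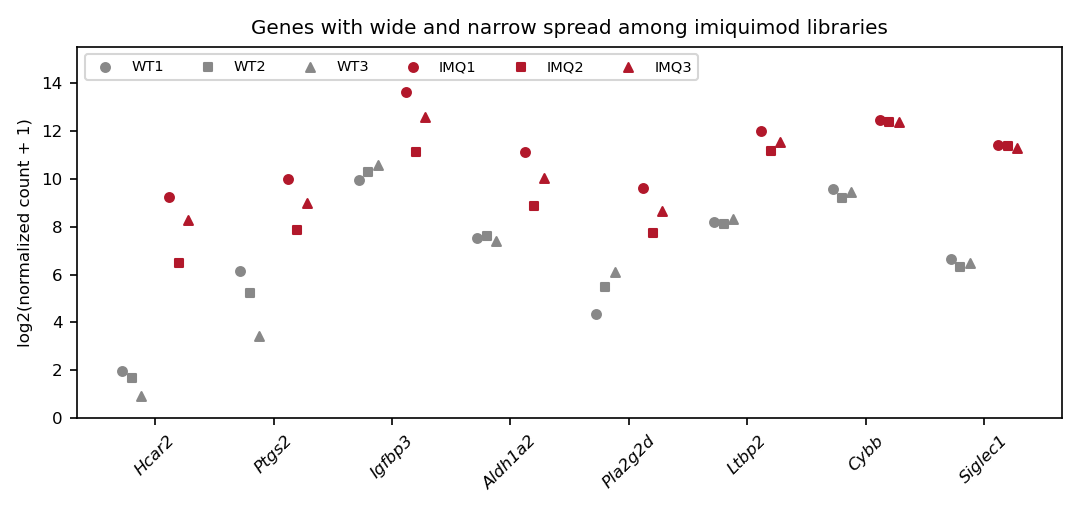
log2(normalized count + 1) of 8 genes in the WT libraries (grey) and IMQ libraries (red), with circles, squares and triangles for libraries 1, 2 and 3. The first 6 genes show IMQ1 above IMQ3 above IMQ2, most widely for Hcar2, while Cybb and Siglec1 are close together in the IMQ libraries.

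Metabolic families were mixed. Of 6 listed glycolysis genes 4 rose and 1 fell, of which 3 were called without IMQ1, IMQ2 or IMQ3. The hexokinase Hk3 (ENSRNOG00000026235), of leukocytes, was at 3.73, 5.07 and 4.24 in WT1 to WT3 and 8.46, 9.32 and 9.09 in IMQ1 to IMQ3 (4.61, SE 0.44, limma adjusted p = 0.000287), and Hk2 rose by 2.40 (SE 0.24). The muscle enolase Eno3 was lower by 1.34, and its call was lost without WT2, IMQ1, IMQ2 or IMQ3 (limma adjusted p = 0.0523 to 0.0755). Of 18 lipid handling genes 13 rose and 5 fell, and 11 were called without WT2 and 11 without IMQ3. Pltp (ENSRNOG00000016488), a plasma lipid transfer protein, rose by 2.77 (SE 0.28), while Fabp3, a fatty acid binding protein, fell by 1.92 (SE 0.33). Xenobiotic enzymes were near even, 15 called higher and 12 lower of 28. Cyp7b1, which makes oxysterols that guide lymphocytes, rose by 2.27 (SE 0.37). Of 9 antioxidant enzymes 3 rose and 6 fell, and 5 were called without IMQ1, IMQ2 or IMQ3. Gpx3 (ENSRNOG00000052564), a plasma glutathione peroxidase, and Sod3, the extracellular superoxide dismutase, rose by 1.95 and 1.23 (SE 0.28 and 0.20). Srxn1, the intracellular sulfiredoxin, was higher by 1.60, and its call was lost without IMQ1, IMQ2 or IMQ3 (limma adjusted p = 0.0523 to 0.0643). Txn1, thioredoxin, fell by 1.53 (SE 0.33).

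General machinery of the cell stood at the lower side. All 17 listed spliceosome proteins were lower and called, against 37% of listed genes called lower. Their median was -1.48, and it was -0.66, -1.61 and -2.14 against WT1, WT2 and WT3. Only 3 of 17 reached 1 against each WT library, below the 48.9% of all listed genes and the 597 of 1608 lower genes. Snrpg (ENSRNOG00000032232), one of the Sm proteins that ring the spliceosomal RNAs, was at 8.18, 8.96 and 9.64 in WT1 to WT3 and 7.11, 6.97 and 6.94 in IMQ1 to IMQ3 and fell by 1.92 (SE 0.40, limma adjusted p = 0.00545). Lsm5 (ENSRNOG00000042126), of the related ring on U6, fell by 2.13 (SE 0.41). The groups did not overlap in either gene, and WT1 and WT3 differed by more than any pair of IMQ libraries. Without IMQ3 10 of 17 members were called.

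Chaperones followed the same course, with 16 of 19 called lower, 2 higher and medians of -0.67, -1.25 and -1.77 against the WT libraries. Tbca (ENSRNOG00000048342), which folds beta-tubulin, was at 12.12, 12.64 and 13.26 in WT1 to WT3 and 10.999, 11.01 and 10.68 in IMQ1 to IMQ3 and fell by 1.78 (SE 0.32). Hspe1 (ENSRNOG00000051624), the mitochondrial co-chaperonin, was at 10.60, 11.49 and 11.90 in WT1 to WT3 and 9.66, 9.64 and 9.54 in IMQ1 to IMQ3 and fell by 1.72 (SE 0.35). Ubiquitin and its relatives gave 12 lower and 2 higher of 15 listed, and 9 were called without WT2, IMQ2 or IMQ3. Cops9 (ENSRNOG00000037402), a subunit of the signalosome that removes the modifier Nedd8, fell by 2.30 (SE 0.38). The exceptions were Isg15 (ENSRNOG00000021802) and Ubd, the modifiers that interferon and inflammatory cytokines induce, which rose by 2.64 and 2.86 (SE 0.45 and 0.59).

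The proteasome showed a like division. Of 12 listed members 10 were called lower and 2 higher. The median of all 12 was -1.10, or -0.45, -1.23 and -1.70 against WT1, WT2 and WT3. Without WT1, WT2 and WT3 in turn 12, 3 and 9 of 12 were called, and without IMQ1, IMQ2 and IMQ3 in turn 7, 7 and 4. Among them Psmg3, an assembly chaperone, was at 10.35, 11.25 and 11.86 in WT1 to WT3 and 9.79, 9.74 and 9.70 in IMQ1 to IMQ3, and its call was lost without WT2 (limma adjusted p = 0.0516). The exceptions, Psmb8 (ENSRNOG00000000456) and Psmb9 (ENSRNOG00000000459), are the catalytic subunits of the immunoproteasome that replace constitutive ones under interferon. Psmb8 was at 7.51, 8.41 and 8.66 in WT1 to WT3 and 10.60, 10.37 and 10.38 in IMQ1 to IMQ3 and rose by 2.26 (SE 0.34). Psmb9 was at 7.399, 7.90 and 8.38 in WT1 to WT3 and 9.82, 10.74 and 10.30 in IMQ1 to IMQ3 and rose by 2.39 (SE 0.36, limma adjusted p = 0.0017). For both the difference was largest against WT1, while in the lower members as a group it was smallest against WT1. The WT libraries themselves ran the same way, with WT3 above WT1 in all 12 members.

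Of 16 subunits of RNA polymerase II, Mediator and related factors, 10 fell and 6 rose. Without WT1, WT2 and WT3 in turn 16, 7 and 13 of all 16 were called, and without IMQ1, IMQ2 and IMQ3 in turn 9, 8 and 7. Polr2k (ENSRNOG00000010408), a subunit common to all 3 nuclear polymerases, was at 10.14, 10.89 and 11.43 in WT1 to WT3 and 9.22, 9.21 and 8.83 in IMQ1 to IMQ3 and fell by 1.74 (SE 0.36). Taf13 (ENSRNOG00000020315), a subunit of the promoter-binding factor TFIID whose promoter is shown above, was at 11.55, 11.93 and 12.16 in WT1 to WT3 and 10.78, 10.71 and 10.70 in IMQ1 to IMQ3 and fell by 1.15 (SE 0.24). The 6 higher members were Polr2a, the catalytic subunit, Med1, Med12, Med13 and Med13l of Mediator, and Taf7l, a TFIID subunit known from germ cells. Polr2a (ENSRNOG00000028834) was at 11.61, 10.77 and 11.02 in WT1 to WT3 and 12.36, 12.51 and 12.53 in IMQ1 to IMQ3 and rose by 1.33 (SE 0.27, limma adjusted p = 0.00531). Med13 was at 9.80, 8.18 and 7.19 in WT1 to WT3 and 10.10, 10.33 and 10.39 in IMQ1 to IMQ3, so that WT1 lay near the IMQ values and WT3 far below, and its call was lost without WT2, IMQ1, IMQ2 or IMQ3 (limma adjusted p = 0.054 to 0.0717). Med1 had the same course, and its call was lost without WT2, WT3, IMQ1, IMQ2 or IMQ3 (limma adjusted p = 0.0786 to 0.104).

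**Figure D5:**
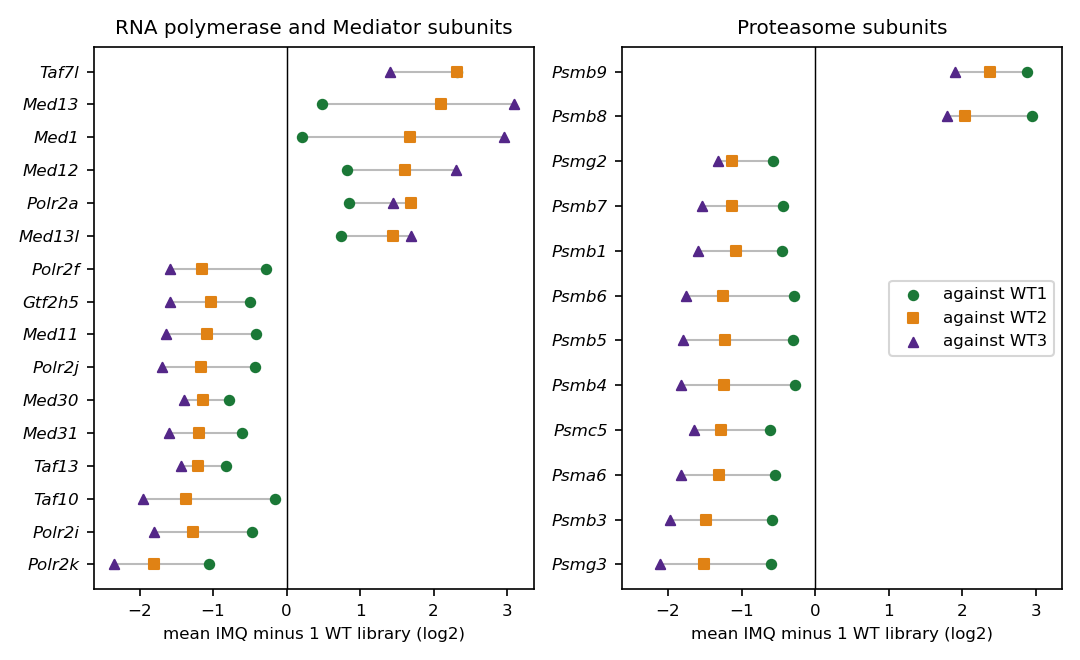
Mean IMQ minus 1 WT library (log2 scale) for each listed subunit of RNA polymerase II, Mediator and related factors (left) and of the proteasome (right), with circles for WT1, squares for WT2 and triangles for WT3. Differences against WT1 lie nearest to zero in all lower members, while Psmb8 and Psmb9 are highest against WT1, at 2.95 and 2.89.

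Further machinery families repeated this. Of 6 translation factors all fell (median -1.06), with medians of -0.31, -1.19 and -1.76, and 0 of 6 reached 1 against each WT library. Of the 6, 3 were called without WT3 and 2 without WT2 or any IMQ library. Mcts1, a re-initiation factor, fell by 1.39 (SE 0.31). Of 26 vesicle tethering and coat genes 18 fell and 8 rose, and 14, 14 and 12 were called without WT2, IMQ2 and IMQ3. Bloc1s3 (ENSRNOG00000017463), of the complex that builds lysosome-related organelles, was at 6.66, 7.94 and 8.17 in WT1 to WT3 and 4.58, 4.06 and 4.09 in IMQ1 to IMQ3 and fell by 3.34 (SE 0.48), while Arl11, a small GTPase of macrophages, rose by 1.92 (SE 0.31). Histones gave 8 lower and 2 higher of 10 (median -1.79) and are near-identical copies, so single genes are uncertain. Of 10 S100 proteins and annexins 8 fell and 2 rose, and 6 were called without WT2 and 6 without IMQ3. S100a13 (ENSRNOG00000012393), a small calcium-binding protein, fell by 2.37 (SE 0.47), Anxa3 of neutrophils rose by 1.37 (SE 0.35), and S100a9 of the same cells was higher by 1.20, a call lost without WT1, WT2, IMQ1, IMQ2 or IMQ3 (limma adjusted p = 0.0523 to 0.159).

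Cilium genes were lower in 12 of 16 listed members, of which 10 were called, and higher in 4. Cfap57, of the axoneme, was at 8.21, 8.55 and 9.39 in WT1 to WT3 and 7.16, 7.15 and 7.05 in IMQ1 to IMQ3 and fell by 1.60 (SE 0.36), while Dnah11 (ENSRNOG00000005451), an outer-arm dynein, rose by 1.46 (SE 0.32). Without WT1, WT2 and WT3 in turn 13, 6 and 10 of 16 were called, and without IMQ1, IMQ2 and IMQ3 in turn 9, 7 and 7. Of 38 homeobox, forkhead, SOX and PAX factors 25 were called higher and 12 lower, and 24 of 38 reached 1 against each WT library. Pou2f2 (ENSRNOG00000055650), a factor of B cells and monocytes, rose by 2.83 (SE 0.31) and Prrx1, of mesenchyme, by 2.57 (SE 0.61). Msx3, of the dorsal neural tube, was at 4.55, 5.07 and 5.23 in WT1 to WT3 and 3.04, 1.70 and 3.67 in IMQ1 to IMQ3 and fell by 2.15 (SE 0.57). Of 24 bHLH and bZIP factors 18 rose and 6 fell, and 12, 14 and 13 were called without WT2, IMQ2 and IMQ3. Atf3 (ENSRNOG00000003745), the factor that injured sensory neurons induce, was at 8.20, 9.19 and 8.98 in WT1 to WT3 and 11.47, 11.01 and 11.06 in IMQ1 to IMQ3 and rose by 2.39 (SE 0.33, limma adjusted p = 0.00113). Creb3l4, of the secretory pathway, fell by 2.02 (SE 0.44).

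Heterotrimeric G proteins and their RGS regulators were divided, 6 called higher and 5 lower of 13. Gna15 (ENSRNOG00000005378), an alpha subunit of blood cells, was at 6.27, 6.12 and 6.30 in WT1 to WT3 and 8.43, 8.67 and 8.51 in IMQ1 to IMQ3 and rose by 2.31 (SE 0.27), and Rgs16 rose by 2.31 (SE 0.28). Gnas (ENSRNOG00000025889), the alpha subunit that stimulates adenylyl cyclase, was at 10.65, 11.33 and 11.52 in WT1 to WT3 and 9.56, 9.51 and 9.49 in IMQ1 to IMQ3 and fell by 1.65 (SE 0.28). Genes of DNA replication were few, 3 called higher and 3 lower of 7, and 2 were called without WT2 or IMQ3 and 3 without WT3 or IMQ1. Rpa3 (ENSRNOG00000008309), a subunit of the protein that coats single-stranded DNA, was at 8.67, 9.26 and 9.16 in WT1 to WT3 and 8.02, 7.80 and 7.56 in IMQ1 to IMQ3 and fell by 1.24 (SE 0.29).

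Chemosensory receptors, known mainly from nasal and oral epithelium, were 9 higher and 1 lower of 10 listed, 9 of the 10 called, most of them at low levels. Olr1637 was at 1.66, 0 and 0 in WT1 to WT3 and 4.16, 4.06 and 4.41 in IMQ1 to IMQ3 and rose by 3.65 (SE 0.54). Olr63 was at 5.50, 4.05 and 1.48 in WT1 to WT3 and 6.66, 6.35 and 6.36 in IMQ1 to IMQ3, and its call was lost without WT2, IMQ1, IMQ2 or IMQ3 (limma adjusted p = 0.059 to 0.0692). Such receptors form large groups of close copies, and reads of a neighbouring transcript cannot be told apart, so single values are uncertain.

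Outside all families, the 10 higher genes with the largest smallest difference against the 3 WT libraries were led by antibody, chemokine and complement genes. Csf3 (ENSRNOG00000008525), granulocyte colony-stimulating factor, had no reads in WT and stood at 8.50, 4.62 and 7.27 in IMQ1 to IMQ3, at least 33.2-fold higher against a floor of 3 reads per library. Clec4e (ENSRNOG00000061394), the lectin Mincle, was at 2.76, 1.69 and 1.48 in WT1 to WT3 and 9.10, 8.27 and 8.60 in IMQ1 to IMQ3 and rose by 6.68 (SE 0.46, limma adjusted p = 9.1e-05). Il1rn (ENSRNOG00000005871), the natural antagonist of the interleukin 1 receptor, was at 4.90, 5.002 and 4.84 in WT1 to WT3 and 11.17, 10.43 and 10.62 in IMQ1 to IMQ3 and rose by 5.82 (SE 0.30, limma adjusted p = 3.62e-05). Among the 10 lower ones, Tmem158 (ENSRNOG00000004757), a membrane protein, was at 9.30, 10.02 and 9.48 in WT1 to WT3 and 6.84, 6.35 and 6.16 in IMQ1 to IMQ3 and fell by 3.15 (SE 0.33), and Hmcn2 (ENSRNOG00000062252), an extracellular matrix protein, was at 6.59, 6.59 and 7.38 in WT1 to WT3 and 3.24, 4.403 and 2.66 in IMQ1 to IMQ3 and fell by 3.42 (SE 0.53). In all 5 genes the groups did not overlap, as in 92.8% of listed genes, and the 5 were picked for large differences against every WT library.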

How the data were processed

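RNA-seq of total RNA (TRIzol, per the labels' protocols) gave the deposited table of 4136 genes that the authors called between IMQ and WT. Its values, as deposited by the authors, are log2(normalized count + 1), reads per gene divided by a factor per library. STAR 2.5.3a, bcl2fastq and DESeq2 appear in the submitters' processing notes with no role stated. The sources used here give no strand setting, genome build, annotation or scaling method, so reads of overlapping or antisense genes may be mixed, and the scaling could not be checked on selected genes. After undoing the log2, all of 3217 to 3470 low values per library were whole multiples of 1 read (tolerance 0.02), giving 4311091 to 9035486 reads over the listed genes.

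These log2 values were tested with limma 3.58.1 (R 4.3.3) with a mean-dependent prior, 3 against 3, genes with a mean of at least 1, Benjamini-Hochberg adjustment and threshold 0.05. The fit was also run on simulated counts with the same spread in both groups. That run does not cover the unequal spread found here (median SD 0.61 in WT and 0.20 in IMQ). Members and lists were chosen with earlier results of these data known. Families come from symbols and descriptions, with 17 genes left out by name and 733 rows without a usable symbol; 52 families of at least 5 listed genes hold 789 genes. In each, the 3 largest called differences at a mean of at least 50, the smallest p and up to 3 members of the minority direction were named. Outside families, the 10 higher and 10 lower genes with the largest smallest difference against a WT library were eligible. Artn, Casp1, Hamp, Itgav, Lat, Pycard and Spi1 were chosen after their values were seen. Floors of 3 reads per library cover counting error only. Alternatives were other pseudocounts (0.1, 10), no filter, a mean of at least 50, adjusted p under 0.01, limma-voom on recovered reads, a replicate block, single WT libraries and each library left out.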

Additional observations from a re-analysis of the deposited data

How the results depend on the processing

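Against 2435 higher and 1530 lower genes, a threshold of 0.01 left 1276 and 619, and leaving out 1 library gave 1565 to 2397 higher and 884 to 1559 lower genes. Without WT2 the calls were 1609 and 884, and without IMQ3 1565 and 885; 2492 and 2445 genes of the full comparison remained called. Other settings stayed within 1.5 times: 2314 and 1472 with a pseudocount of 0.1, 2443 and 1540 with 10, 1802 and 1072 with a mean of at least 50, and 2474 and 1501 with limma-voom on recovered reads. Deviations of same-numbered libraries correlated at -0.16, -0.06 and -0.12, and those of other pairs at -0.06 to 0.14. Each deviation is taken from the mean of its own small group. These values therefore cannot settle whether replicate numbers pair the samples. A replicate block gave 2380 and 1438.

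The choice of WT library mattered most. Of 52 family medians, 40 moved by more than the replicate spread against WT1 alone, 14 against WT2 and 43 against WT3. The median of DNA replication genes turned from 1.02 to -1.04 with a mean of at least 50, which leaves fewer genes. AC117058.1 turned to 0.72 against WT1 alone. Depth limits genes near the floor of 3 reads, and selection by the authors makes the share of calls uninformative.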

Other observations

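AC117058.1, a gene with a clone name and no description, was the only called gene whose difference had the opposite sign against 1 WT library. It was at 3.27 in WT1, 12.64 in WT2 and 13.02 in WT3, and at 3.95 to 4.09 in the IMQ libraries. It is listed as lower because WT2 and WT3 stand far above the other 4 libraries. Its limma adjusted p was 0.0489 with all libraries and 0.0938 to 0.166 without WT2, WT3, IMQ1, IMQ2 or IMQ3.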
